A study of Mus musculus with 6 samples.

Results

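The leukocyte integrin and homing genes described here are Itgam, Itgal, Itgb2, Itga4, Itgb1, Itgb7, Selplg, Cd44 and Cxcr4, a list of 9 of the 54838 genes in the count table, taken from the table by symbol. They were measured in I1DN cells, a murine AML that arose from fetal liver hematopoietic stem and progenitor cells of C57BL/6 background co-transduced with IDH1R132H, DNMT3AR882H and NrasG12D. Cryopreserved leukemia cells were transplanted into sub-lethally irradiated congenic Ptprca recipients, so both groups carried all 3 mutant genes and grew in an irradiated host. The 3 mice of the AG636 group received the DHODH inhibitor AG636 at 100 mg/kg b.i.d. by oral gavage, and the 3 mice of the Vehicle group received the carrier. The study's sources give the length of treatment as 1 day in one place and 4 days in another, name the sorted cells cKit+CD11b- in one place and cKit-high CD11b-low in another, and do not give the age of the mice or whether each library came from bone marrow or spleen. The comparison asks how the transcripts of these genes differed in immature leukemia cells after inhibition of pyrimidine synthesis.

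Leukocytes leave the blood in steps. Selectins slow the cell by binding glycoproteins such as PSGL-1, the product of Selplg, chemokine receptors such as CXCR4 then switch integrins to their high-affinity form, and integrins hold the cell on the vessel wall and the matrix. Each integrin is a pair of an alpha and a beta chain: the beta2 chain (Itgb2) pairs with alphaM (Itgam) as Mac-1 and with alphaL (Itgal) as LFA-1, whereas alpha4 (Itga4) pairs with beta1 (Itgb1) as VLA-4 or with beta7 (Itgb7) as LPAM-1. CXCR4, VLA-4 and CD44, the hyaluronan receptor, are known for holding normal and leukemic stem cells in the marrow. Mac-1, of which CD11b is the alpha chain, is known for rising as granulocytes and monocytes mature.

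Totals ranged from 4634963 to 7906589 counts per library, and 3 counts corresponded to between 0.392 and 0.637 CPM (the counts of a gene per size of its library, each library scaled with a TMM factor). Libraries captured the end of each transcript, so levels are compared between groups for 1 gene and never between genes. All 9 genes passed the low-count filter, the scarcest being Itgam with 990 counts over the 6 libraries. The groups lay apart on principal component 1 (59.6% of the variance of log2 CPM), with Vehicle replicate 1 farthest out at -45.8 and the other 5 libraries between -22.4 and 38.0.

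Of the 9 genes, 5 were upregulated with AG636 (Itgam, Itgb2, Itgb7, Selplg and Cxcr4), 1 was downregulated (Cd44) and 3 did not pass the test (Itgal, Itga4 and Itgb1). A gene was called at a Benjamini-Hochberg adjusted p under 0.05 in edgeR's quasi-likelihood test over all 11092 genes tested, of which 21.3% were called, 10.3% as higher and 11% as lower with AG636. The CPM of the 2 groups did not overlap for 7 of the 9 genes, against 41.1% of all genes tested. The median log2 fold change (AG636 over Vehicle) was 0.70 over the 9 genes and 0.03 over all genes tested. No gene of the 9 changed direction under any of the 13 alternative fits. The number upregulated was 5 or 6 in the fits on all 6 libraries, but fell to 3 without Vehicle replicate 1, 2 without Vehicle replicate 2, 3 without AG636 replicate 1 and 2 without AG636 replicate 3, and the number downregulated fell to 0 without AG636 replicate 3. Over all genes, 1146 were higher and 1222 lower with AG636, a split that turned to 1483 and 913 when library size alone set the scale. Since bulk RNA was counted, a change in the share of cells that express a gene and a change in its RNA per cell cannot be told apart.

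**Figure D1:**
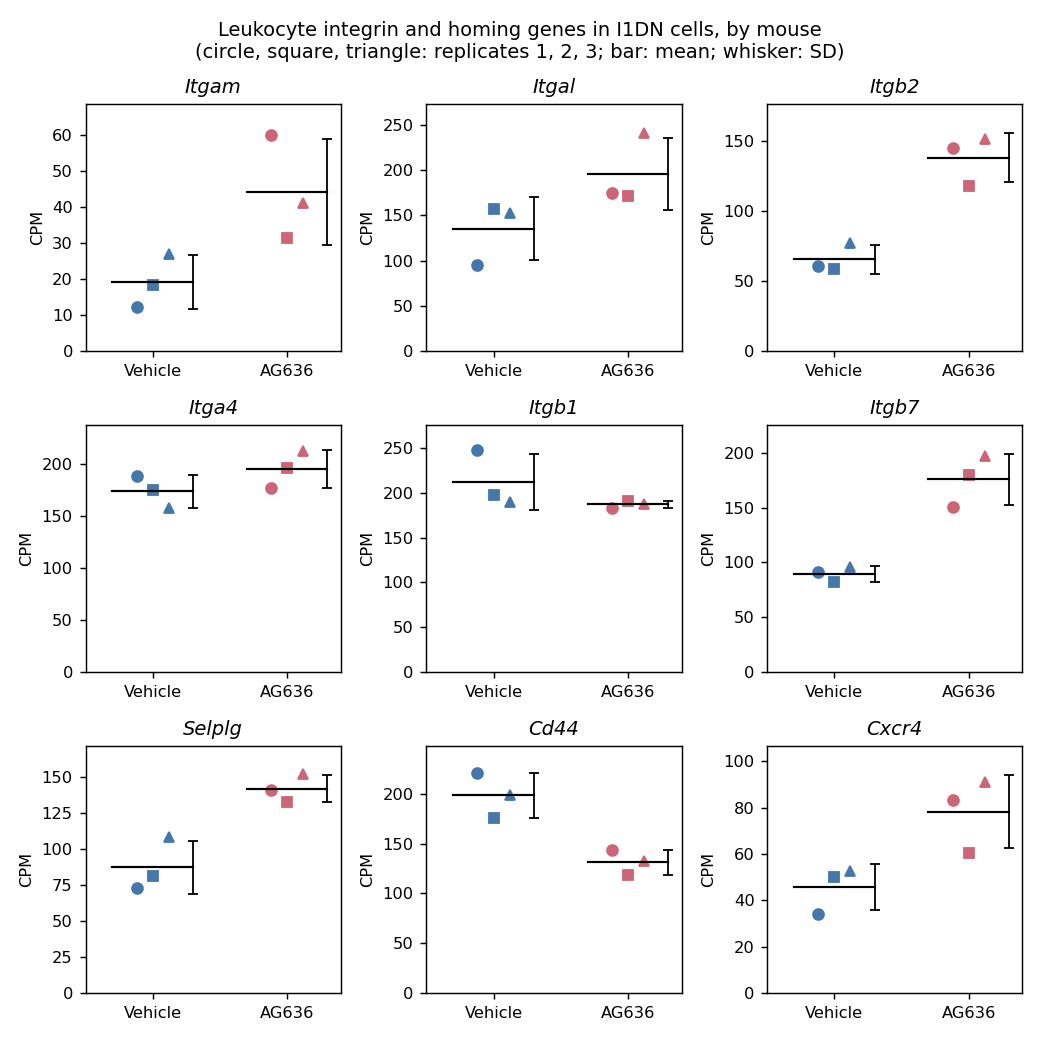
CPM of each of the 9 genes (y axis, from 0) in the 3 Vehicle (blue) and 3 AG636 (red) libraries (x axis), with circle, square and triangle for replicates 1, 2 and 3, a bar at the mean and a whisker of 1 SD. The groups are apart in 7 panels and overlap for Itga4 and Itgb1, and Cd44 is the single gene of the 7 with AG636 below Vehicle.

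The promoters of 3 called genes are shown because 2 of these genes rose and 1 fell. Each run is the 250 bases before the RefSeq transcript start (GRCm38.p6), written on the strand of the gene, at chr7:128062390-128062639 for Itgam, chr1:128592300-128592549 for Cxcr4 and chr2:102901666-102901915 for Cd44. Capitals mark GAGGAA, a core sequence bound by the myeloid factor PU.1, and GGGCGG, the Sp1 core, or their reverse complements.

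Itgam: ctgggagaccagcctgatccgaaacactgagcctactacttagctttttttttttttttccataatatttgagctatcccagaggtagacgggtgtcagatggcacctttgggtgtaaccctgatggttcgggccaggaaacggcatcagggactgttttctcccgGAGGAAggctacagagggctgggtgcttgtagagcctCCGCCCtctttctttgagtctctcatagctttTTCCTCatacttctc

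Cxcr4: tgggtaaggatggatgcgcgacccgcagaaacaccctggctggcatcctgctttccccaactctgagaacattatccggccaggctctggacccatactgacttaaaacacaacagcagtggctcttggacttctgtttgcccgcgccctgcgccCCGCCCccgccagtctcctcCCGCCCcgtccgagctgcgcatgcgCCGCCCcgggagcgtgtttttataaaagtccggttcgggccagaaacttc

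Cd44: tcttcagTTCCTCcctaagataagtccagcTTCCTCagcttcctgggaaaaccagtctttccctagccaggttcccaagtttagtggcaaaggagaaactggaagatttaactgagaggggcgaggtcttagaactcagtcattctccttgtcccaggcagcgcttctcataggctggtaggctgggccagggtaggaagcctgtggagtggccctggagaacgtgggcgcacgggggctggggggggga

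Itgam held GAGGAA at 84 bases before the start and, on the other strand, at 15, with 1 GGGCGG on the other strand at 47. Cxcr4 held 3 GGGCGG, at 95, 75 and 50 bases, and Cd44 held 2 GAGGAA, at 243 and 220, all on the other strand. RefSeq's table gave promoters for 6 of the 9 genes, Itgal, Itgb2 and Selplg being the others. On either strand, GAGGAA was in 3 of these 6 and in 23.3% of all 32851 promoters of the same length, GGGCGG in 4 of 6 and 32.7%, the RUNX core TGTGGT in 1 of 6 and 14.0%, and the YY1 core CCATNTT in 0 of 6 and 12.4%. GAGGAA was in Itgam, Cd44 and the uncalled Itgb1, and GGGCGG in Itgam, Cxcr4 and the uncalled Itga4 and Itgb1. TGTGGT was in the uncalled Itga4. The promoter of Itgb7, which was called but is not printed here, held none of these 4 motifs. The 4 motifs do not overlap each other in the printed runs. Of the genes of these factors, Spi1, which encodes PU.1, was not called, with a log2 fold change of 0.67 (SE 0.24, edgeR adjusted p = 0.0714). Nor was Yy1, at -0.07 (SE 0.11, edgeR adjusted p = 0.659). The gene of Sp1 was not on the related lists.

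Itgb2, which encodes the beta chain shared by Mac-1 and LFA-1, lies on chromosome 10 (mm10, chr10:77530252-77565708, plus strand). It was measured at 60.8, 58.5 and 77.1 CPM in Vehicle replicates 1, 2 and 3 and at 145, 118 and 151 CPM in AG636 replicates 1, 2 and 3. The lowest AG636 library was thus above the highest Vehicle library. The mean rose from 65.5 ± 10.2 CPM (SD, n = 3) to 138 ± 17.5 CPM (SD, n = 3), a log2 fold change of 1.08 (SE 0.15, 95% interval 0.74 to 1.42, edgeR adjusted p = 0.00329). Its call held in all 13 alternatives, with log2 fold changes between 0.99 and 1.19.

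Itgam encodes CD11b, the alphaM chain, and is the gene of the antigen on which the cells were sorted as low or negative in both groups. It lies on chromosome 7 (chr7:128062640-128118491, plus strand). Its level was 12.1, 18.3 and 27.0 CPM in Vehicle replicates 1, 2 and 3, and 60.1, 31.3 and 41.2 CPM in AG636 replicates 1, 2 and 3. The groups did not overlap, but AG636 replicate 1 was well above the other 2 and Vehicle replicate 1 the lowest of its group. The mean rose from 19.1 ± 7.45 to 44.2 ± 14.6 CPM (SD, n = 3 each), a log2 fold change of 1.21 (SE 0.31, 95% interval 0.54 to 1.89, edgeR adjusted p = 0.0219). This call was lost when 1 library was left out in 4 of 6 cases, with edgeR adjusted p = 0.0530 without Vehicle replicate 1, 0.0794 without Vehicle replicate 2, 0.0814 without AG636 replicate 1 and 0.0560 without AG636 replicate 3, and with log2 fold changes between 0.93 and 1.50 over the 6 cases. A gene model without an established name on the same strand, Gm49368, shares exon bases with Itgam and had 5 counts, 0.505% of those of Itgam.

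Itgal, the alphaL chain of LFA-1, lies on the same chromosome (chr7:127296260-127335138, plus strand), 766 kb before the start of Itgam. It was measured at 95.2, 157 and 153 CPM in Vehicle and at 175, 171 and 241 CPM in AG636 replicates 1, 2 and 3. All AG636 libraries lay above all Vehicle libraries, with the gap between Vehicle replicate 2 and AG636 replicate 2 small beside the range within each group. The means were 135 ± 34.7 and 196 ± 39.5 CPM (SD, n = 3 each), and the log2 fold change of 0.53 (SE 0.20, 95% interval 0.08 to 0.99) did not pass the threshold (edgeR adjusted p = 0.0871). The log2 fold change was 0.32 without Vehicle replicate 1 (edgeR adjusted p = 0.252) and 0.36 without AG636 replicate 3 (edgeR adjusted p = 0.291). Of the 13 alternatives, it passed only in the one without a low-count filter (edgeR adjusted p = 0.00622). The other genes of this integrin group on chromosome 7, named for their position, are Itgax, which starts 66.9 kb after the start of Itgam and had a log2 fold change of 0.82 (SE 0.34, edgeR adjusted p = 0.107), and Itgad, with 6 counts in all.

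Itgb7, the beta7 chain, is on chromosome 15 (chr15:102215995-102231944, minus strand). Its levels were 90.9, 81.6 and 95.9 CPM in Vehicle and 151, 179.6 and 197 CPM in AG636 replicates 1, 2 and 3. Every AG636 library was above every Vehicle library by more than the range of the Vehicle group. The mean rose from 89.5 ± 7.25 to 176 ± 23.5 CPM (SD, n = 3 each), a log2 fold change of 0.98 (SE 0.14, 95% interval 0.67 to 1.28, edgeR adjusted p = 0.00320), the lowest adjusted p of the 9. The call held in all 13 alternatives.

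Itga4 and Itgb1, which together encode VLA-4, the receptor for VCAM-1 and fibronectin, were not called. Itga4 (chr2:79255426-79333123, plus strand) was at 189, 175 and 158 CPM in Vehicle and 177, 197 and 213 CPM in AG636 replicates 1, 2 and 3. Its groups overlapped, with a log2 fold change of 0.17 (SE 0.12, 95% interval -0.11 to 0.44, edgeR adjusted p = 0.350). Itgb1 (chr8:128685654-128733200, plus strand) was at 248, 198 and 189.5 CPM in Vehicle and 183, 191 and 188 CPM in AG636 replicates 1, 2 and 3. Vehicle replicate 1 stood above the other 5 libraries, which lay close together. Its log2 fold change was -0.18 (SE 0.13, 95% interval -0.46 to 0.11, edgeR adjusted p = 0.342), and the intervals of both genes leave out a change as large as the one measured for Itgb7. Without Vehicle replicate 1 the log2 fold change of Itgb1 was -0.07, and without Vehicle replicate 3 it was -0.27. That of Itga4 was 0.08 without Vehicle replicate 3 and 0.10 without AG636 replicate 3. Cerkl, on the opposite strand, shares exon bases with Itga4 and had 7 counts, 0.115% of those of Itga4. The use of strand in counting is not given in the sources used here, so reads of the pair could not be told apart.

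**Figure D2:**
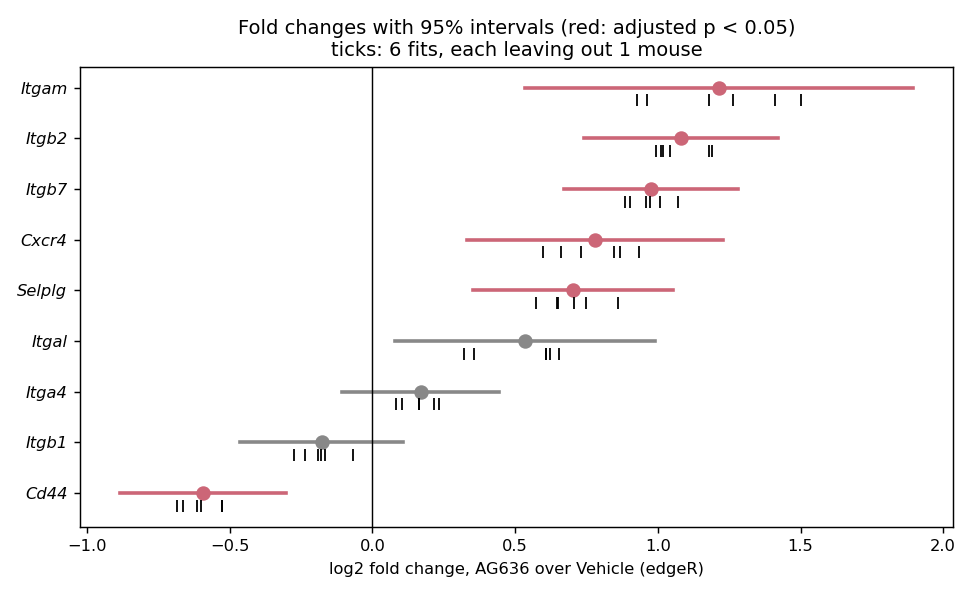
Log2 fold change (AG636 over Vehicle) of the 9 genes (x axis) with the 95% interval of edgeR's quasi-likelihood fit, red where the adjusted p was under 0.05, and black ticks for the 6 fits that each leave out 1 library. The interval of Itgam, 0.54 to 1.89, is the widest, and the ticks of each gene stay on 1 side of 0.

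Selplg and Cxcr4 act before firm adhesion. Selplg, the gene of PSGL-1, the chief leukocyte ligand of P-selectin, lies on chromosome 5 (chr5:113818536-113832644, minus strand). Its levels were 72.6, 81.5 and 108 CPM in Vehicle and 141, 133 and 152 CPM in AG636 replicates 1, 2 and 3. The groups did not overlap, and Vehicle replicate 3 came nearest to the AG636 libraries. The mean rose from 87.4 ± 18.4 to 142 ± 9.63 CPM (SD, n = 3 each), a log2 fold change of 0.70 (SE 0.16, 95% interval 0.35 to 1.05, edgeR adjusted p = 0.0143). The adjusted p was 0.0606 without Vehicle replicate 2 and 0.0563 without AG636 replicate 3 (edgeR).

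Cxcr4, the gene of the receptor for the marrow chemokine CXCL12, is on chromosome 1 (chr1:128588199-128592293, minus strand). It was measured at 34.2, 50.0 and 52.7 CPM in Vehicle and at 83.5, 60.6 and 91.0 CPM in AG636 replicates 1, 2 and 3. The groups did not overlap, with AG636 replicate 2 not far above the Vehicle libraries. The mean rose from 45.6 ± 9.95 to 78.4 ± 15.8 CPM (SD, n = 3 each), a log2 fold change of 0.78 (SE 0.20, 95% interval 0.33 to 1.23, edgeR adjusted p = 0.0242). The call was lost without Vehicle replicate 1 (edgeR adjusted p = 0.0687), Vehicle replicate 2 (0.0614), AG636 replicate 1 (0.0778) or AG636 replicate 3 (0.0931), where the log2 fold change was still between 0.60 and 0.85.

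Cd44, the hyaluronan receptor, moved the other way. It lies on chromosome 2 (chr2:102811141-102901665, minus strand) and was measured at 221, 176 and 199 CPM in Vehicle and 143, 118 and 133 CPM in AG636 replicates 1, 2 and 3. Every AG636 library was below every Vehicle library. The mean fell from 198 ± 22.4 to 131 ± 12.5 CPM (SD, n = 3 each), a log2 fold change of -0.59 (SE 0.13, 95% interval -0.89 to -0.30, edgeR adjusted p = 0.0138). Without AG636 replicate 3 the edgeR adjusted p was 0.0504, with a log2 fold change of -0.60. For each of the 7 genes without overlap the exact permutation test gave p = 0.1, the smallest that 3 against 3 allows, and for Itga4 and Itgb1 it gave p = 0.2 (two-sided).

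Chains of 1 heterodimer, and chains that compete for 1 partner chain, are encoded by separate genes. The within-library ratio of their transcripts was therefore compared, as log2(CPM + 1) of one gene minus that of the other. Itgb7 with Itgb1, and Itgam with Itgal, are chains that compete and do not pair with each other. The size of such a ratio has no meaning in libraries of transcript ends, and only its change between groups is read. The ratio of Itgb7 to Itgb1 went from -1.44, -1.27 and -0.98 in Vehicle to -0.28, -0.08 and 0.07 in AG636 replicates 1, 2 and 3, a difference of 1.13 in which the groups did not overlap. Itga4 over Itgb7 went from 1.05, 1.09 and 0.71 to 0.23, 0.13 and 0.11, a difference of -0.79 without overlap, and Itga4 over Itgb1 differed by 0.34, also without overlap. For these 3 ratios the exact permutation test gave p = 0.1, the smallest this design allows, and 0.2 after Benjamini-Hochberg adjustment over the 6 ratios. The transcript of beta7, relative to either chain of VLA-4, was thus higher in each of the 3 AG636 libraries than in any Vehicle library, in a design where this test cannot pass 0.05.

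The beta2 integrins gave overlapping ratios. The difference was -0.52 for Itgal over Itgb2 and 0.64 for Itgam over Itgal (exact permutation p = 0.2 and adjusted p = 0.24 for each). Itgam over Itgb2 differed by 0.12 (exact permutation p = 0.9), and by -0.11 without Vehicle replicate 1 and -0.09 without AG636 replicate 1, so no direction can be given. The difference for Itgam over Itgal fell to 0.32 without AG636 replicate 1.

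**Figure D3:**
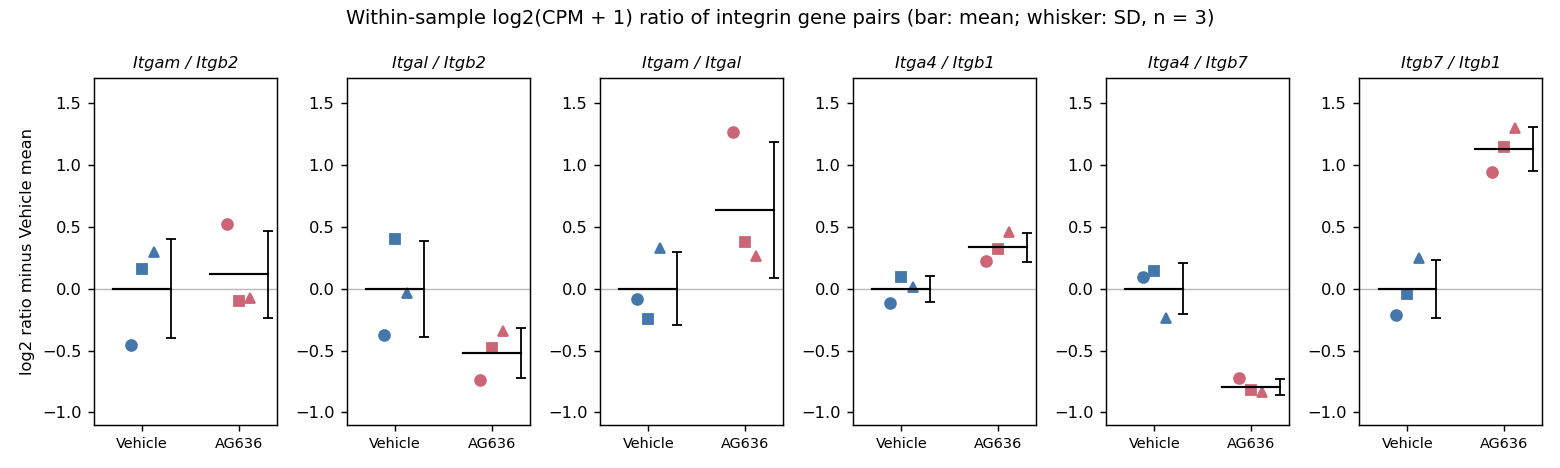
Difference of log2(CPM + 1) within 6 pairs of integrin genes in each library, set to 0 at the Vehicle mean (y axis). Vehicle is blue and AG636 red, with circle, square and triangle for replicates 1, 2 and 3, a bar at the mean and a whisker of 1 SD (n = 3). The groups are apart in the 3 panels that hold Itga4 or Itgb7 and overlap in the 3 panels that hold Itgam or Itgal.

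Other integrin subunits were mostly too scarce to test, with 8 of 21 passing the filter, of which 4 rose and 1 fell (median log2 fold change 0.78). The counts of this and the following lists stand against the 10.3% of all genes tested that were called higher with AG636 and the 11% called lower. Counts at an unadjusted p under 0.05 in edgeR stand against 4112 of the 11092 genes tested, in either direction. Itga6, a laminin receptor chain, rose from 126 ± 18.1 to 219 ± 17.5 CPM (SD, n = 3 each), a log2 fold change of 0.80 (SE 0.14, edgeR adjusted p = 0.00570). Itga2b, the alphaIIb chain of megakaryocytes and platelets, rose by 0.73 (SE 0.21), Itga2 by 1.15 (SE 0.31) and Itgav by 0.75 (SE 0.22). Itga5, the fibronectin receptor chain, had a log2 fold change of -1.29 (SE 0.34, edgeR adjusted p = 0.0264), on 108 counts in all. Its counts were 23, 36 and 22 in Vehicle and 7, 8 and 12 in AG636 replicates 1, 2 and 3. Itga5 thus passed the low-count filter only through the Vehicle group, where it was higher. The number that rose was 2 without AG636 replicate 3, 1 without Vehicle replicate 1, 2 without Vehicle replicate 2 and 1 without Vehicle replicate 3, and the number that fell was 0 without any 1 of the 6 libraries.

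Among genes of integrin activation and adhesion adaptors, 28 of 35 were tested, 9 rose and 0 fell, against 10.3% called higher and 11% called lower over all genes tested (median log2 fold change 0.33). At an unadjusted p under 0.05 in edgeR, 1 was lower, and DESeq2 and limma-voom also called 0 as lower. Fermt3, which encodes kindlin-3, needed by leukocytes and platelets for integrin activation, rose from 462 ± 67.7 to 716 ± 87.8 CPM (SD, n = 3 each), a log2 fold change of 0.63 (SE 0.14, edgeR adjusted p = 0.0136). Tln1, the gene of talin, the other protein that binds beta tails to activate them, had a log2 fold change of 0.34 (SE 0.14, edgeR adjusted p = 0.109), and Rap1b, the small GTPase upstream of talin, one of 0.11 (SE 0.15, edgeR adjusted p = 0.636). Rassf5, which encodes the Rap effector RAPL, rose by 0.78 (SE 0.13), the adaptor Fyb by 0.84 (SE 0.14) and Zyx, the gene of the focal adhesion protein zyxin, by 0.82 (SE 0.19). Rap1gap2, which encodes a protein that turns Rap off, rose by 1.52 (SE 0.25, edgeR adjusted p = 0.00501). The number that rose fell to 3 without AG636 replicate 3. Of the counter-receptors, 6 of 10 were tested and 0 rose or fell in edgeR, in DESeq2 and in limma-voom, and 0 had an unadjusted p under 0.05 in edgeR (median log2 fold change -0.09). Icam1, whose product binds LFA-1 and Mac-1, had a log2 fold change of -0.08 (SE 0.27), and Cd47 one of 0.24 (SE 0.14).

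Selectins and the proteins that carry their ligands gave 1 gene that rose among 8 tested, and 0 that fell (median log2 fold change 0.25). At an unadjusted p under 0.05 in edgeR, 3 were higher and 0 lower, against 4112 of all 11092 genes tested in either direction. Spn, the gene of the sialomucin CD43, had a log2 fold change of -0.06 (SE 0.13), and Cd34 one of 0.45 (SE 0.22, edgeR adjusted p = 0.161). Without Vehicle replicate 3 the number that rose was 3. PSGL-1 binds selectins only once it is glycosylated and sulfated, and 16 genes of these steps were tested, of which 1 rose and 1 fell (median log2 fold change -0.03). Gcnt1, the enzyme that branches core 2 O-glycans, rose by 0.67 (SE 0.15, edgeR adjusted p = 0.0140), and the sialyltransferase gene St3gal3 had a log2 fold change of -1.41 (SE 0.33, edgeR adjusted p = 0.0163). The fucosyltransferase genes did not pass, with 0.50 for Fut7 (SE 0.31, edgeR adjusted p = 0.268) and 0.36 for Fut4 (SE 0.32, edgeR adjusted p = 0.442). Gcnt1 was no longer called without Vehicle replicate 2, nor St3gal3 without Vehicle replicate 2 or without AG636 replicate 3, which left 0 in each case.

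Of the chemokine and lipid homing receptors, 9 of 17 were tested, 4 rose and 0 fell (median log2 fold change 0.75). At an unadjusted p under 0.05 in edgeR, 5 were higher and 0 lower, against 4112 of all 11092 genes tested in either direction. DESeq2 and limma-voom also called 0 as lower. Cxcr2, the neutrophil receptor known for release from the marrow, rose from 20.2 ± 2.75 to 43.9 ± 4.03 CPM (SD, n = 3 each), a log2 fold change of 1.12 (SE 0.17, edgeR adjusted p = 0.00408). S1pr1, the sphingosine 1-phosphate receptor that draws cells toward blood, rose by 1.41 (SE 0.26), the chemokine receptor gene Ccr1 by 2.0 (SE 0.42) and Dpp4, whose product cleaves CXCL12, by 0.75 (SE 0.20). Cxcl12 itself had 1 count in all. The number that rose was 2 without Vehicle replicate 2. Among genes of CXCR4 signalling and desensitization, all 26 were tested, 7 rose and 1 fell (median log2 fold change 0.41). The regulators of G-protein signalling Rgs18 and Rgs14 rose by 0.89 (SE 0.16) and 0.92 (SE 0.22), as did the receptor kinase gene Grk3 by 0.72 (SE 0.17), Stat3 by 0.73 (SE 0.16) and the kinase gene Pim1 by 0.99 (SE 0.22). Rgs2 also rose, by 0.95 (SE 0.29, edgeR adjusted p = 0.0414), with overlap between the groups. Arrb1, the gene of beta-arrestin 1, had a log2 fold change of -0.66 (SE 0.18, edgeR adjusted p = 0.0299), and neither Rgs1, at 0.79 (SE 0.26, edgeR adjusted p = 0.0569), nor Grk2, at 0.42 (SE 0.19, edgeR adjusted p = 0.147), passed. The number that rose was 3 without Vehicle replicate 1, 2 without Vehicle replicate 2 and 3 without AG636 replicate 3, and the number that fell was 0 without any 1 library other than Vehicle replicate 3.

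Around Cd44, 15 of 20 genes of its partners and of hyaluronan were tested, 2 rose and 3 fell, against 10.3% called higher and 11% called lower over all genes tested (median log2 fold change -0.04). Msn, the gene of moesin, which ties CD44 to actin, rose by 0.56 (SE 0.13, edgeR adjusted p = 0.0158), and Srgn, the gene of the proteoglycan serglycin, by 0.73 (SE 0.16, edgeR adjusted p = 0.0141). Ezr, the gene of ezrin, had a log2 fold change of 0.04 (SE 0.16, edgeR adjusted p = 0.860). Nf2 (merlin), Hyal2 (a hyaluronidase) and Mmp14 (a membrane protease that can cut CD44) fell, by 0.61 (SE 0.14), 0.79 (SE 0.23) and 2.11 (SE 0.53) on the log2 scale. The number that fell was 0 without Vehicle replicate 1 or AG636 replicate 1, 1 without Vehicle replicate 2 or AG636 replicate 3 and 5 without Vehicle replicate 3, and the number that rose was 1 without Vehicle replicate 1, Vehicle replicate 2 or AG636 replicate 1.

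**Figure D4:**
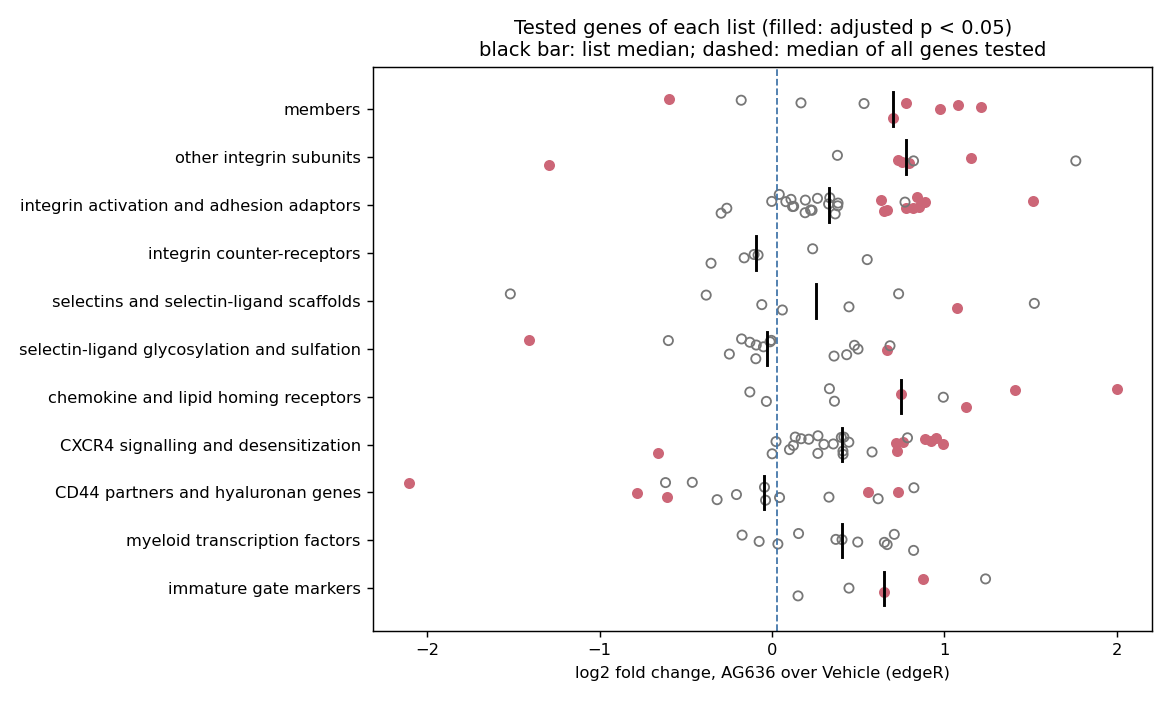
Log2 fold change (AG636 over Vehicle, x axis) of each tested gene in the 9 genes and 10 related lists (y axis), filled red where the edgeR adjusted p was under 0.05, with a black bar at the list's median and a dashed line at the median of all genes tested. The medians run from -0.09 for counter-receptors to 0.78 for other integrin subunits.

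Genes that describe the sorted cells moved with the groups as follows. Kit, the gene of the other antigen of the gate, was at 43.1, 31.8 and 41.0 CPM in Vehicle and 46.3, 37.3 and 44.7 CPM in AG636 replicates 1, 2 and 3, with a log2 fold change of 0.15 (SE 0.17, edgeR adjusted p = 0.550). Of a list of 6 markers of immature cells and of sort gates, named gate markers below, 5 were tested (median log2 fold change 0.65). Of these, 2 rose and 3 were not called. Kit was not called, nor was Cd34, at 0.45 (SE 0.22, edgeR adjusted p = 0.161). The 2 that rose were Ptprc (CD45), by 0.65 (SE 0.15), and Fcgr3, by 0.87 (SE 0.27). Neither encodes cKit or CD11b, the antigens of this sort. Without Vehicle replicate 1, Vehicle replicate 2, AG636 replicate 1 or AG636 replicate 3 the number that rose was 1. Of the myeloid transcription factors, 0 of 11 tested were called in edgeR and in limma-voom (median log2 fold change 0.41). At an unadjusted p under 0.05 in edgeR, 4 were higher and 0 lower, against 4112 of all 11092 genes tested in either direction. DESeq2 called 2 as higher, and edgeR called 1 without Vehicle replicate 3 and 4 without AG636 replicate 2. Cebpa had a log2 fold change of 0.50 (SE 0.26) and Cebpe one of 0.37 (SE 0.50).

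Markers of mature neutrophils moved in the direction of Itgam and Itgb2: 7 of 10 tested genes rose and 0 fell, Cxcr2 being on this list as on that of homing receptors, and their summed level was 1044 to 2384 CPM in Vehicle and 2899 to 5901 CPM in AG636. The lowest of the 6 sums was in Vehicle replicate 1 and the highest in AG636 replicate 1, the libraries with the lowest and the highest Itgam. Within Vehicle the sums had the order of Itgam. AG636 replicates 2 and 3 had the opposite order, with sums of 3129 and 2899 CPM and Itgam at 31.3 and 41.2 CPM. Of the monocyte and macrophage markers, 3 of 8 tested rose, with sums of 70.2 to 106 CPM in Vehicle and 170.3 to 239 CPM in AG636. T and NK cell markers summed to 16.4 to 18.3 and 15.3 to 19.1 CPM, with 0 of 2 tested called in edgeR or at an unadjusted p under 0.05 and Cd3e at 6 counts in all. B cell markers summed to 40.5 to 78.0 and 44.8 to 114 CPM, with 0 of 4 called in edgeR or at an unadjusted p under 0.05 and Pax5 at 3 counts. Erythroid markers, of which 2 of 9 fell, summed to 1830 to 4984 and 1986 to 3493 CPM. Megakaryocyte markers, 2 of 6 tested higher and Itga2b among them, summed to 788 to 1222 and 1061 to 1729 CPM. Mast cell, basophil and eosinophil markers, 1 of 6 tested higher and 1 lower, summed to 418 to 739 and 445 to 1106 CPM. Endothelial and stromal markers, 1 of 2 tested higher, summed to 108 to 182 and 159 to 255 CPM, with Cdh5 and Lepr at 0 counts. The part of these markers in the results for Itgam, Itgb2, Itgb7, Selplg, Cxcr4 and Cd44 was not tested.

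**Figure D5:**
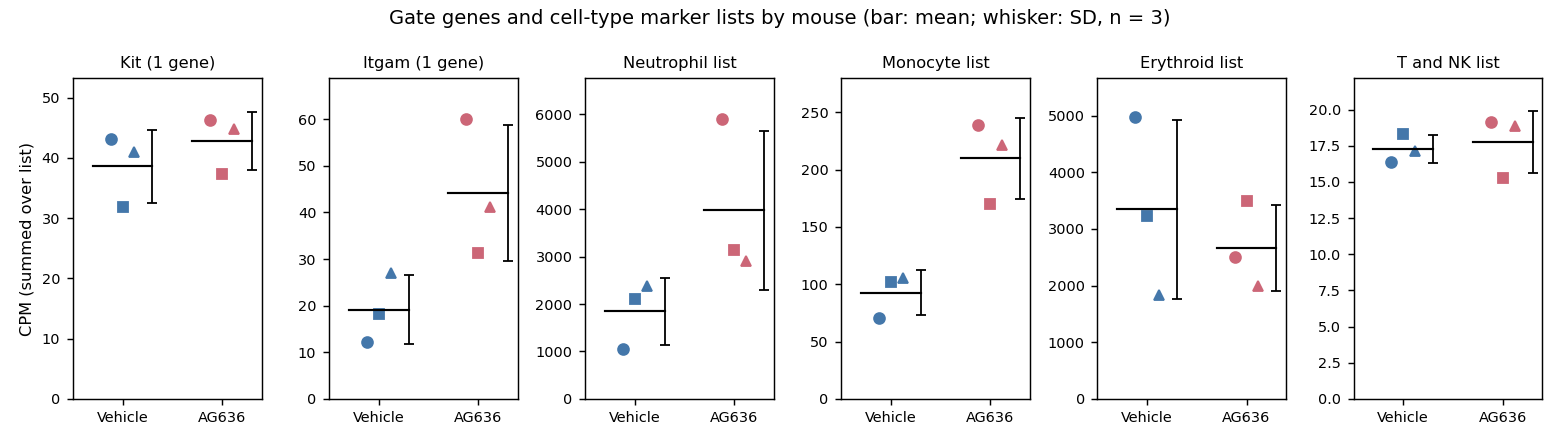
CPM (y axis, from 0, each panel on its own scale) of Kit and Itgam and the summed CPM of 4 marker lists in the Vehicle (blue) and AG636 (red) libraries, with circle, square and triangle for replicates 1, 2 and 3, a bar at the mean and a whisker of 1 SD (n = 3). AG636 replicate 1 is the highest library for Itgam and for the neutrophil list, while Kit and the T and NK cell list overlap between groups.

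The genes with the profile most like each called gene were found among 6870 genes of at least 20 CPM, by the root mean square difference of log2 CPM over the 6 libraries after each gene was centred on its mean. The nearest to Cd44 were Cse1l, at 0.027, Agpat5 and Prkdc, and the nearest to Cxcr4 were Man2b1, at 0.045, Jakmip1 and Zfp950. Selplg was followed by Abhd17b, at 0.067, Prkacb and Vim, Itgb7 by Mettl7a1, at 0.085, Tspyl3 and Trim12c, and Itgb2 by Stk10, at 0.092, Cd52 and Sla2. Itgam was nearest to Lbp, Lcn2 and Apobr, all at 0.168. Itgam, whose fold change had the largest SE of the 6 genes, thus had the least close match.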

How the data were processed

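RNA of sorted I1DN cells from 3 Vehicle and 3 AG636 mice was sequenced as libraries of transcript ends. The authors deposited raw counts per gene, not normalized. Per the submitters' processing notes, reads were trimmed with cutadapt 1.9.1, mapped to mm10 with HISAT2 2.0.4 and counted with featureCounts of Subread 1.5.0-p3. The annotation release, the use of strand and the handling of multi-mapping reads are not given in the sources used here. GENCODE gave a symbol to 54723 of the 54838 identifiers.

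The counts were compared with edgeR 4.0.16 in R 4.3.3 (filterByExpr, minimum count 10 and minimum total 15, TMM factors, quasi-likelihood test, Benjamini-Hochberg adjustment over all genes tested, calls at an adjusted p under 0.05). SE is the log2 fold change divided by the square root of F. CPM use the scaled library sizes. Ratios used a pseudocount of 1 CPM and two-sided exact permutation tests. Alternatives were DESeq2 1.42.0, limma-voom (limma 3.58.1), other size factors and filters, a replicate block and leaving out each library.

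Groups and replicate numbers came from the labels. Nothing says that same-numbered mice were paired, so the main fit had no block. Within groups, replicates differed by a chi-square per degree of freedom of 6.76 to 16.0, and each library was counted once. No molecular identifiers are described, so the floor of 3 counts covers counting error only, and the median SE over all genes tested was 0.20. The 9 genes and all related lists were chosen with earlier results of these data known. Named genes are the 9, the called genes of each related list (at most 5 in each direction by lowest adjusted p), some genes of these lists named whether called or not, and the 3 nearest profiles of each called gene. The gene length column was not used. No column of per-sample values was left unused. Values of 2 listed genes are not reported here.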

Additional observations from a re-analysis of the deposited data

How the results depend on the processing

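The 9 genes kept their direction under all 13 alternatives, and Itgb2 and Itgb7 also kept their call. The calls of Itgam, Cxcr4, Selplg and Cd44 depend on single libraries, as given above, and Itgal was called only without a low-count filter. Leaving out 1 library in turn gave 2 to 5 of the 9 genes upregulated and 0 to 1 downregulated, and 399 to 1074 genes higher and 452 to 1298 lower over all genes. The lowest of these were without AG636 replicate 3 (399 and 452), and the numbers were 605 and 630 without AG636 replicate 1, 524 and 701 without Vehicle replicate 1 and 500 and 692 without Vehicle replicate 2. Fewer libraries enter these fits, and beyond that the cause was not tested.

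Over the same fits the numbers that rose were 1 to 4 for other integrin subunits, 3 to 8 for adaptors, 1 to 3 for selectins and scaffolds, 0 to 1 for glycosylation, 2 to 4 for chemokine and lipid receptors, 2 to 9 for CXCR4 signalling, 1 to 2 for CD44 partners, 0 to 4 for myeloid transcription factors and 1 to 2 for gate markers. The numbers that fell were 0 to 0 for other integrin subunits, 0 to 1 for selectins and scaffolds, 0 to 1 for glycosylation, 0 to 1 for CXCR4 signalling and 0 to 5 for CD44 partners. With no filter, 4 selectin and scaffold genes, 3 of glycosylation, 11 of CXCR4 signalling, 4 CD44 partners, 4 myeloid transcription factors and 5 gate markers rose, and 2 selectin and scaffold genes fell. Over all genes, 1537 were then higher and 1620 lower, against 1146 and 1222 in the main fit. With at least 10 counts in every sample, 0 other integrin subunits fell, with 1065 genes higher and 1198 lower over all genes. Itga5, at 7 and 8 counts in AG636 replicates 1 and 2, was not tested in that fit. Scaling by library size alone gave 2 glycosylation genes and 1 myeloid transcription factor that rose (1483 higher and 913 lower over all genes). DESeq2 gave 3 selectin and scaffold genes and 2 myeloid transcription factors that rose, and 0 other integrin subunits that fell. It called 1166 genes higher and 1328 lower over all genes. Limma-voom gave 2 selectin and scaffold genes and 1 gate marker that rose (1142 higher and 1230 lower over all genes). The cause of the other differences was not tested.

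The replicate block left 5 of the 9 genes upregulated and 1 downregulated, and 914 higher and 1046 lower over all genes, with 1 gate marker that rose and 0 other integrin subunits and 0 CXCR4 signalling genes that fell. The labels do not say that mice with the same number were paired. The deviations of same-numbered libraries from their group means correlated between -0.19 and 0.24, and not every library correlated best with its own number. With 3 libraries per group the deviations are tied to each other, so these correlations cannot tell whether mice were paired. The ratio of Itgam to Itgb2 reversed without Vehicle replicate 1 (-0.11) and without AG636 replicate 1 (-0.09), and ranged from -0.11 to 0.27. The other 5 ratios kept their direction under a pseudocount of 0.25, under library size alone and without any 1 library. At these depths, genes near the floor of 0.392 to 0.637 CPM, such as Cxcl12, Itgad and Cd3e, could not be compared.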
